A study of Mus musculus with 39 samples.

Results

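AE9a leukaemia was followed from the first to the fourth serial transplantation by setting 3 arrays of passage 4 against 3 arrays of passage 1, which are 6 of the 39 arrays of the series. The arrays were chosen by their titles alone, and all measured genes entered the comparison. AE9a is a short splice form of AML1-ETO, the fusion made by the t(8;21) translocation of human acute myeloid leukaemia, in which the DNA-binding runt domain of RUNX1 is joined to part of the corepressor-binding protein ETO. In mice this short form gives rise to leukaemia without further engineered mutations.

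The groups used were AE9a at passage 4 and at passage 1, with 3 recipient mice each, and AE9a at passages 2 and 3, whose levels are given beside them. AE9a+miR-126, in which the microRNA miR-126 was added, and miR-126KO+AE9a, in which miR-126 was knocked out, each had 3 mice at passages 4 and 1. Normal controls were 3 mice of the first transplantation. In every group donor cells carrying CD45.1 had been sorted by flow cytometry from the bone marrow of transplanted recipients at the end stage, so each array holds the whole donor graft and not a purified leukaemic blast. Strain, sex and age of the mice, the number of separate grafts, which recipient seeded which, and the way in which AE9a was expressed were not given in these sources.

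A leukaemia carried through serial recipients is under selection for cells that engraft and expand, and its graft can at the same time hold mature progeny and other donor blood cells. Fusion proteins with a runt domain act at genes that carry the core motif TGTGGT, many of them genes of granulocyte and monocyte maturation. In a sorted bulk sample a higher value can come from more cells of a type or from more RNA per cell, and these cannot be told apart.

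Values are log2 expression values on an array scale, in which each unit is a doubling, and levels are compared within a gene only. Differences are given ± standard error from limma, and genes with a Benjamini-Hochberg adjusted p below 0.05 among 22180 are said to have passed. Of these genes 652 passed (2.94%), 449 of them higher at passage 4 (2.02%) and 203 lower (0.915%), and by at least 2-fold 340 were higher (1.53%) and 147 lower (0.663%). Before adjustment 3184 (14.4%) had a p under 0.05. The share of higher genes among those that passed was 68.9%, against 56.9% after cyclic loess, 54.4% after quantile normalization and 46.4% with array spread as a covariate, with medians of all differences at -0.05, -0.01, -0.01 and -0.02 in the same order. Leaving out 1 array lowered the number to 297 without passage 1 replicate 1, 344 without passage 1 replicate 2, 421, 383 and 372 without passage 4 replicates 1, 2 and 3, and 436 without passage 1 replicate 3.

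Arrays of passage 4 correlated with each other at 0.977 to 0.991, arrays of passage 1 at 0.964 to 0.987, and arrays of the 2 passages with each other at 0.933 to 0.970. Ptprc, which encodes CD45 and is carried by all sorted cells, read 11.02, 11.01 and 10.77 at passage 4 and 11.41, 11.52 and 11.41 at passage 1 (adjusted p = 0.423). The defining genes of stroma and endothelium stayed at mean levels of 5.37 to 5.46 at passage 4 and 5.33 to 5.49 at passage 1, and 0 of 6 passed. A probe set shared by Mir126a and Egfl7, the gene that hosts it, read 2.97, 2.82 and 2.79 at passage 4 and 2.79, 2.76 and 2.92 at passage 1, against 5.90 to 11.6 in AE9a+miR-126. Xist, the RNA of the inactive X chromosome, and the Y-linked Eif2s3y both read above 6 in all 6 arrays. Xist read 11.62, 11.60 and 11.09 at passage 4 and 10.76, 10.93 and 11.54 at passage 1, and Eif2s3y read 8.30, 7.69 and 7.64 at passage 4 and 7.51, 7.80 and 6.04 at passage 1. The 4 sex-linked genes measured averaged 8.45, 7.90 and 7.85 at passage 4 and 7.26, 7.48 and 6.55 at passage 1. Their means were 5.45, 6.79 and 7.85 at passage 2, 5.56, 5.46 and 6.18 at passage 3 and 7.61 to 8.20 in the normal controls. Passage 4 thus lay above all arrays of passage 3, and the cause was not tested.

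The largest rises at passage 4 included 4 stefin genes, the chemokine genes Ccl2 and Ccl7, the complement gene C1qb and the granzyme gene Gzmb, and the largest falls were in Plet1, Mreg and Adgrl4. Csta2, a stefin of the cystatin family of cysteine protease inhibitors that mouse myeloid cells carry as a tandem cluster, read 9.35, 10.40 and 10.82 at passage 4 and 4.71, 3.66 and 4.82 at passage 1. It rose by 5.80 ± 0.70 (55.6-fold, n = 3 and 3, limma adjusted p = 1.02e-05), the largest change among named genes. Its relatives Stfa2 (3.96 ± 0.83, adjusted p = 0.00479), Csta3 (3.78 ± 0.75) and Stfa3 (3.42 ± 0.94, adjusted p = 0.0397) rose as well, and each had its 3 arrays of passage 4 above its 3 arrays of passage 1. Genes of this cluster are near-identical copies, so the probes of one may pick up another, and their 4 rises are not separate pieces of evidence. Stfa3 passed in 1 of the 6 fits that left out 1 array of these groups.

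In normal controls Csta2 averaged 4.03 ± 0.43 and at passage 1 4.40 ± 0.64 (SD, n = 3 each), while passages 2, 3 and 4 of AE9a averaged 7.03 ± 2.87, 9.49 ± 0.83 and 10.19 ± 0.76. Passage 2 spanned more of the scale than the other groups, with 1 of its arrays near the level of passage 1. The windows of Csta2 and Stfa2 from 250 bases before to 50 bases after the annotated start (RefSeq, GRCm38) are shown as the first of the named rises matched in the sequence table used, and both genes are stefins. They lie at chr16:36221312-36221611 on the plus strand and at chr16:36408314-36408613 on the minus strand, and capitals mark the runt core motif TGTGGT or its reverse complement ACCACA. Csta2 holds the motif 156 and 44 bases before the start and Stfa2 holds the reverse match 207 bases before it, and 16.8% of 32851 such windows hold 1 or more.
Csta2: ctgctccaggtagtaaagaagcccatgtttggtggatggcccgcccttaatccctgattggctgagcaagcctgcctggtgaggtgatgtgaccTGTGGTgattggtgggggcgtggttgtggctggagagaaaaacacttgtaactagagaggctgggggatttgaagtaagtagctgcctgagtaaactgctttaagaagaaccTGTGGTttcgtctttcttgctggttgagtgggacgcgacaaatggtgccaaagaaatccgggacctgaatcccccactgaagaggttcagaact
Stfa2: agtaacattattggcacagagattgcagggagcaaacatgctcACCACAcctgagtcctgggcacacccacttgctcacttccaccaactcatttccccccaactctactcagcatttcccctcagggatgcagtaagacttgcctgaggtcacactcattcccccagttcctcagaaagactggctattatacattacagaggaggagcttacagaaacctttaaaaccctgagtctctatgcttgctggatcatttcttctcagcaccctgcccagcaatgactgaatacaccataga

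**Figure D1:**
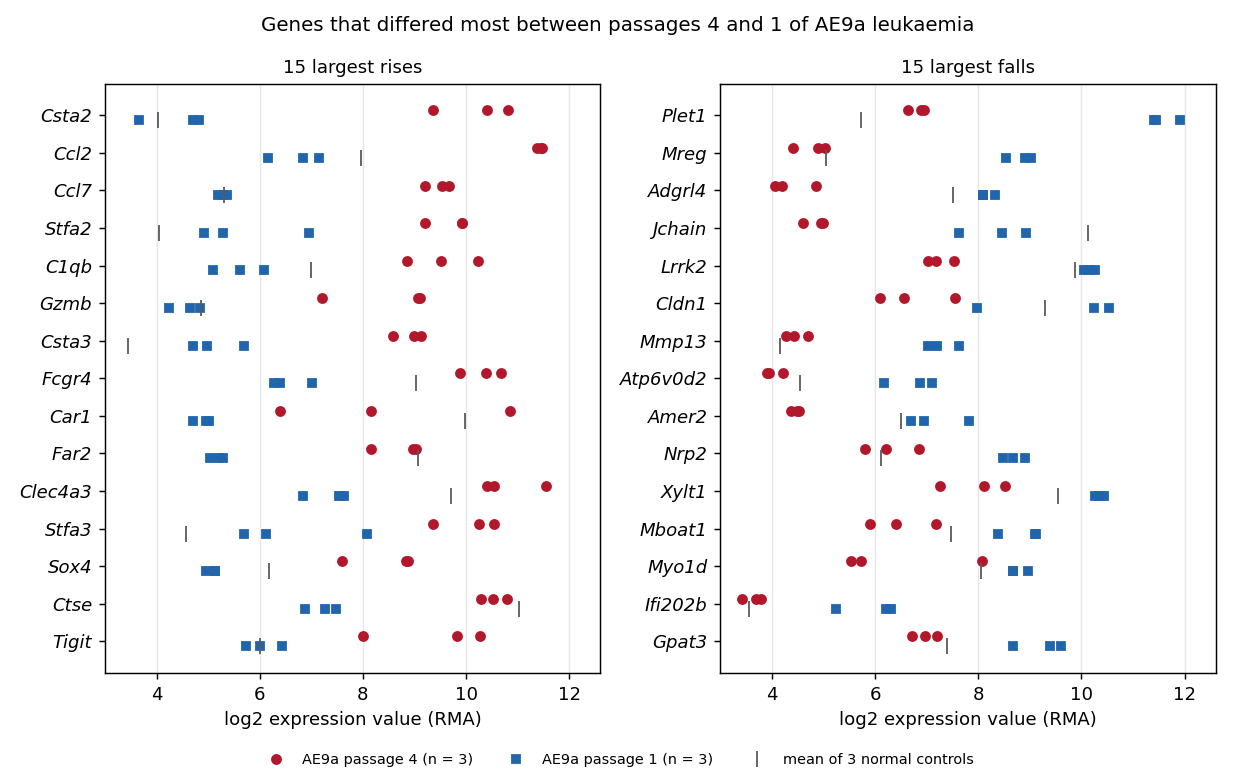
Log2 expression values (x axis) of the 15 largest rises and the 15 largest falls, with 1 circle for each of 3 AE9a arrays of passage 4, 1 square for each of 3 arrays of passage 1 and a tick for the mean of 3 normal controls. No circle crosses a square for any gene shown, since the rule for naming asked for this, with the widest spread at passage 4 in Car1 among rises and in Myo1d among falls.

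Chemokines that draw monocytes rose next. Ccl2, the main ligand of the receptor CCR2, read 11.37, 11.45 and 11.48 at passage 4 and 6.83, 7.16 and 6.16 at passage 1, a rise of 4.71 ± 0.69 (26.3-fold, adjusted p = 0.000101). Its neighbour Ccl7 rose by 4.19 ± 0.66 (18.2-fold, adjusted p = 0.000226). For both genes the 3 arrays of passage 4 lay close together and far above the highest array of passage 1. Ccl2 averaged 11.37 ± 0.14 at passage 2, 10.52 ± 1.52 at passage 3 and 7.96 ± 0.58 in the normal controls (SD, n = 3 each), and passage 3 had 1 array well below its other 2. Their receptor gene Ccr2 differed by 0.88 ± 0.37 and did not pass (adjusted p = 0.229). Of 23 inflammatory cytokine and chemokine genes 3 rose and 2 fell, where 2.02% of all genes rose and 0.915% fell. The list's median difference was 0.23, and the 2 that fell belong to the interleukin 1 receptor. Osm, which encodes the cytokine oncostatin M, rose by 2.03 (adjusted p = 0.0375). Il1r1, the signalling receptor chain, fell to 5.97, 6.07 and 5.81 at passage 4, against 7.57, 8.55 and 7.77 at passage 1 (-2.02 ± 0.37, adjusted p = 0.00125). The shared chain Il1rap fell less (-0.99 ± 0.27, adjusted p = 0.0363, passing in 0 of 6 fits without 1 array, with 2 dimmer probe sets at -0.31 and -0.19).

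Receptors and complement genes of macrophages also stood among the largest rises. C1qb, a chain of the complement component C1q that resident macrophages make, read 10.24, 9.51 and 8.85 at passage 4 and 5.62, 6.09 and 5.09 at passage 1 (3.93 ± 0.67, adjusted p = 0.000512). C1qc rose by 2.67 ± 0.52, the phagocytic receptor Mertk by 2.95 ± 0.63 and the adhesion molecule Vcam1 by 1.19 ± 0.28. In all 4 of 14 resident macrophage genes rose and 0 fell (median 0.58), where 2.02% of all genes rose. Vcam1 passed in 3 of the 6 fits without 1 array. The other genes of that list include the scavenger receptor Cd163 at -0.15 and C1qa at 0.53, neither of which passed. Fcgr4, an activating receptor for IgG, rose by 3.75 ± 0.72 and read 10.67, 10.39 and 9.88 at passage 4, against 6.40, 7.02 and 6.28 at passage 1. Clec4a3, a C-type lectin of myeloid cells, rose by 3.49 ± 0.56. Ctse, which encodes the aspartic protease cathepsin E, rose by 3.34 ± 0.51, and Far2, which encodes a fatty acyl-CoA reductase, by 3.54 ± 0.49.

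Of 21 genes of monocytes and macrophages 3 rose and 0 fell (median 0.60), where 2.02% of all genes rose. The 3 were the high-affinity IgG receptor Fcgr1 (2.48 ± 0.45, adjusted p = 0.00123), the scavenger receptor Cd36 (2.42 ± 0.67, adjusted p = 0.041) and the coagulation factor gene F13a1 (1.30 ± 0.36, adjusted p = 0.0442). Cd36 and F13a1 passed in 1 and 1 of the 6 fits that left out 1 array, and the list had 1 rise without passage 1 replicates 2 or 3 or passage 4 replicates 1 or 3. Levels of the whole list were 10.02, 9.52 and 9.72 at passage 4 and 9.11, 9.07 and 8.78 at passage 1. They were 9.90 to 10.20 at passage 2, 9.02 to 10.20 at passage 3 and 8.88 to 9.20 in the normal controls. The broad monocyte genes Ly6c2 (0.03), Lyz2 (0.01) and Cd68 (0.05) stayed near 0 on the difference scale.

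Genes of neutrophil maturation, a programme that t(8;21) fusions are known to hold back, showed few calls in number. The 2.02% of all genes that rose is a smaller share than in the granule lists and a larger one than in the surface receptors. Of 13 primary granule genes 1 rose, Nkg7, which cytotoxic lymphocytes also carry (2.04 ± 0.41, adjusted p = 0.00344). Of 18 secondary and tertiary granule genes the 2 stefins Stfa2 and Stfa3 rose and the list's median was -0.18. Of 12 neutrophil surface receptors 0 passed in limma, with a median of -0.25, and before adjustment 1 was higher and 1 lower at p under 0.05. The 9 defining neutrophil genes, among them Ltf, Camp and Cxcr2, averaged 10.75 to 11.24 at passage 4 and 11.55 to 11.56 at passage 1, and 0 of 9 passed. Their median difference was -0.41, and these tests used a spread shared over all 39 arrays. Ltf, Lcn2, S100a8, S100a9, Cxcr2 and Csf3r had all 3 arrays of passage 4 below all 3 of passage 1, as had 15.2% of all genes. Camp, Ngp and Ly6g overlapped.

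Immediate early genes, which growth factor, stress and cytokine signals switch on within minutes and which encode AP-1, EGR and NR4A transcription factors, rose almost as a whole list. Of 20 such genes 16 rose and 0 fell, with a median difference of 2.09 against -0.05 over all genes, where 2.02% of all genes rose. The rises ran from 0.75 to 3.25. Mean levels of the list were 10.28, 10.52 and 10.56 at passage 4 and 8.35, 8.83 and 8.40 at passage 1, so the groups did not overlap. Without passage 1 replicate 1 the number was 10, and it lay at 11 to 13 without each of the other arrays. These genes also answer to the handling of live cells before lysis, and the labels give no sorting or collection times. Their part in the result was not tested.

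Jun, an AP-1 subunit, read 12.24, 12.45 and 12.44 at passage 4 and 10.47, 10.85 and 10.63 at passage 1 (1.73 ± 0.21, 3.31-fold, adjusted p = 1.08e-05). Its partners Fos (3.25 ± 0.52, with 9.98, 10.04 and 9.81 at passage 4 and 6.82, 7.25 and 6.01 at passage 1) and Fosb (2.74 ± 0.43), both named after their values were seen, rose as well. Jund rose by 2.15 ± 0.30, with a second, dimmer probe set at 0.83. Among EGR factors, Egr1 rose by 2.99 ± 0.48 (7.93-fold), Egr3 by 3.03 ± 0.40 (8.15-fold) and Egr2 by 2.33 ± 0.44 (5.04-fold). Nr4a2, an orphan nuclear receptor, rose by 2.53 ± 0.37, and Atf3, a stress-induced factor, by 1.71 ± 0.41 (adjusted p = 0.0165, passing in 2 of 6 fits without 1 array). Nr4a3 (0.32), Ier3 (0.81), Junb (0.83) and Maff (1.20) did not pass.

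The list stood at 8.36 to 9.04 in the normal controls, close to the 8.35, 8.83 and 8.40 of passage 1, and at 9.80 to 10.01 at passage 2 and 9.32 to 10.12 at passage 3. All arrays of passages 2, 3 and 4 therefore lay above all arrays of passage 1 and of the normal controls. Egr2 averaged 9.45, 8.91 and 9.91 at passages 2, 3 and 4, against 7.58 at passage 1 and 7.15 in the normal controls. The window of Jun (RefSeq, GRCm38, chr4:95052173-95052472, minus strand), chosen after its values were seen, is shown because AP-1 factors are known to act on it, and capitals mark the 1 match to TGACNTCA, which starts 45 bases before the annotated start. Such a match on either strand stands in 8.83% of the 32851 windows.
Jun: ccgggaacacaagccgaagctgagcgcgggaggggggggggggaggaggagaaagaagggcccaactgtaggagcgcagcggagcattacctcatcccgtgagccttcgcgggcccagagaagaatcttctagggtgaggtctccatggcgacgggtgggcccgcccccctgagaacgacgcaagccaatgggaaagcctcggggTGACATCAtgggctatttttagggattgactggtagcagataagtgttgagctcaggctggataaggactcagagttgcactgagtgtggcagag

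Genes of stress and growth factor feedback had few calls in number. Where a list had rises or falls, they made a larger share of it than among all genes (2.02% higher, 0.915% lower). Of 17 ERK feedback genes 2 rose, the phosphatase gene Dusp1 (1.60 ± 0.28, adjusted p = 0.00067) and the ETS factor Etv5 (0.93 ± 0.26, adjusted p = 0.0456, with a second probe set at -0.09 and the call lost on leaving out any of the 6 arrays). The list's median was 0.44. Of 17 TNF and NF-kappaB feedback genes 0 rose and 1 fell, Tnip1, which restrains NF-kappaB signalling (-2.02 ± 0.41, adjusted p = 0.00344), with a median of -0.02. Of 18 p53 target genes Plk2 (2.40 ± 0.62) and Pmaip1 (1.61 ± 0.45) rose and the death receptor gene Fas fell (-2.01 ± 0.46, adjusted p = 0.01). Plk2 passed in 2, Pmaip1 in 0 and Fas in 4 of the 6 fits without 1 array.

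Of 15 transcription factors of myeloid differentiation 5 rose and 0 fell (median 1.23), where 2.02% of all genes rose. In this set 4 of the 5, Egr1, Egr2, Klf4 and Nr4a1, are immediate early genes too. Klf4, which drives monocyte fate, read 9.66, 8.87 and 9.27 at passage 4 and 6.07, 6.03 and 6.12 at passage 1 (3.19 ± 0.54, 9.14-fold). Maf, a factor of macrophages, rose by 1.57 ± 0.32, with a dimmer probe set at 0.53. The granulocyte and monocyte factors Cebpa (1.71, adjusted p = 0.0566), Irf8 (1.23, adjusted p = 0.0897) and Spi1 (-0.28) did not pass. Among 18 transcription factors of progenitors Sox4, Myc and Gata2 rose and 0 fell (median 0.23). Sox4, which can drive leukaemia in mice, read 7.59, 8.88 and 8.84 at passage 4 and 5.13, 4.97 and 5.14 at passage 1 (3.36 ± 0.49, 10.3-fold, adjusted p = 8.8e-05), while a second probe set, at 3.55 at passage 4 and 3.13 at passage 1, differed by 0.42. Myc rose by 1.80 ± 0.34 (3.49-fold, adjusted p = 0.00161). The stem cell factors Hoxa9 (-0.14), Meis1 (-0.06) and Mecom (-0.28) did not pass. Among 12 surface receptors of stem and progenitor cells Cd27 (1.77 ± 0.38) and Cd48 (1.77 ± 0.45) rose, both of which lymphocytes carry as well and which passed in 5 and 3 of the 6 fits without 1 array, while Kit (0.41) and Cd34 (-0.11) did not pass.

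Genes that interferon gamma induces were higher at passage 4. These GTPases, of the GBP and IRG families, and their companions guard cells against intracellular microbes. Interferon gamma, which T and NK cells make, is known to induce them, but their values do not name the inducing signal or its source. Of 16 measured genes 12 rose and 0 fell, where 2.02% of all genes rose. The median difference was 1.83 and the rises ran from 1.34 to 3.59. Mean levels were 6.59, 7.96 and 8.11 at passage 4 and 5.64, 5.60 and 5.90 at passage 1. Passage 4 replicate 1 was the lowest of its group and still above all of passage 1. Without passage 4 replicate 3 the number was 7, and it was 9 to 13 without each of the other arrays.

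Gbp8, a guanylate-binding protein gene, read 6.84, 8.42 and 8.30 at passage 4 and 4.73, 4.96 and 4.79 at passage 1 (3.03 ± 0.43, 8.14-fold, adjusted p = 6.77e-05). Igtp, an immunity-related GTPase gene, read 7.29, 9.11 and 9.31 at passage 4 and 5.56, 5.64 and 6.48 at passage 1 (2.68 ± 0.53, adjusted p = 0.00278). Gbp4 rose by 2.78 ± 0.51, with 5.17, 8.27 and 8.14 at passage 4 against 4.26, 4.33 and 4.64 at passage 1, and Gbp10 by 1.34 ± 0.21. Genes of the GBP family are close copies, so probes may be shared among them. Cxcl9, a chemokine that interferon gamma induces and that attracts T cells, rose by 2.70 ± 0.45 (6.48-fold, adjusted p = 0.000485), and Socs1, an inhibitor of cytokine receptors, by 1.42 ± 0.28. Gbp3 (0.28), Gbp5 (0.34) and Gbp6 (-0.07) did not pass.

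The window of Igtp (RefSeq, GRCm38, chr11:58199306-58199605, plus strand), also chosen after its values were seen, is shown for the list it belongs to, and capitals mark its 1 match to TTCNNNGAA, the form of a STAT-bound element, starting 45 bases before the start. This motif stands in 8.3% of the 32851 windows and reads the same on both strands.
Igtp: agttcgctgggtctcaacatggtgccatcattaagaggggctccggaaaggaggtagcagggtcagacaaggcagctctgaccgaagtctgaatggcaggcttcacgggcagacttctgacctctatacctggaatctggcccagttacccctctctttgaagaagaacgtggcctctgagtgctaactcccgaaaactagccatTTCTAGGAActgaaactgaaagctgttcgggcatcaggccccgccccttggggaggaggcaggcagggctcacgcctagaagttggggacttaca

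Of 25 genes of the type I interferon response 4 rose and 0 fell (median 0.44), where 2.02% of all genes rose. Zbp1, a sensor of unusual nucleic acids, rose by 2.53 ± 0.39 (adjusted p = 0.00019), Oas2, an antiviral synthetase, by 2.58 ± 0.44, the factor Irf7 by 1.45 ± 0.36 and Rtp4 by 1.87 ± 0.53 (adjusted p = 0.0492). Irf7 passed in 3 and Rtp4 in 1 of the 6 fits without 1 array, and the list had 2 rises without passage 1 replicates 1 or 2 or passage 4 replicate 3. Classical members stayed without a call, among them Isg15 (0.14), Mx1 (0.26), Ifit1 (-1.01) and Rsad2 (-0.38). Mean levels were 6.76, 7.07 and 7.60 at passage 4 and 6.47, 6.48 and 6.72 at passage 1. They were 7.12 to 7.84 at passage 2, 6.66 to 7.93 at passage 3 and 6.72 to 7.01 in the normal controls. Passage 4 thus lay within the range of passage 3, and all of passage 2 lay above passage 1 and the normal controls.

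**Figure D2:**
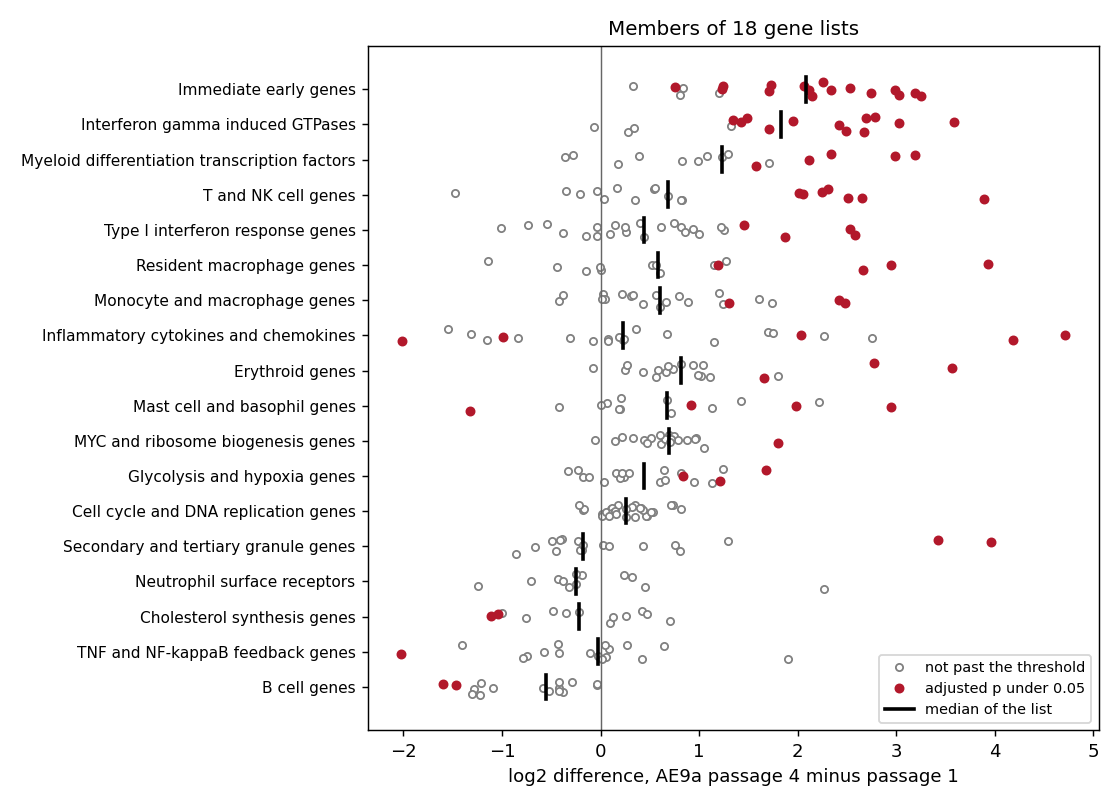
Log2 difference of passage 4 minus passage 1 (x axis) for each measured member of 18 gene lists (rows), with filled circles for genes at an adjusted p under 0.05, open circles for the others and a bar at the median of each list. The medians of immediate early genes (2.09) and interferon gamma induced GTPases (1.83) lie furthest from 0, and the B cell list (-0.56) lies furthest below it.

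Of 19 genes of T and NK cells 7 rose and 0 fell, where 2.02% of all genes rose. The list median was 0.68, the rises ran from 2.01 to 3.89, and the other 12 did not pass. The 7 were Cd3e, Cd3g, Cd8a, Cd8b1, Lat, Gzmb and Prf1. Gzmb, which encodes the killing protease granzyme B, read 7.21, 9.08 and 9.10 at passage 4 and 4.64, 4.85 and 4.24 at passage 1 (3.89 ± 0.49, 14.8-fold, adjusted p = 1.47e-05). Prf1, which encodes the pore-forming protein perforin, rose by 2.31 ± 0.31 (4.95-fold) and the T cell coreceptor gene Cd8a by 2.51 ± 0.38 (5.71-fold). Of the CD3 chains that define T cells, Cd3e read 8.16, 9.79 and 9.60 at passage 4 and 7.18, 6.74 and 6.89 at passage 1 (2.25 ± 0.41, adjusted p = 0.00139) and Cd3g rose by 2.66 ± 0.50. The chain gene Cd3d differed by 0.82 with overlapping groups and did not pass in limma (adjusted p = 0.0614). Of the 5 defining T and NK genes measured 2 passed, and Thy1 (0.68) was among those that did not. The adaptor gene Lat rose by 2.01 ± 0.32, with no overlap between the passages, and mast cells and platelets carry Lat too.

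Among the members without a call, Cd4 differed by 0.54 (adjusted p = 0.427), and the NK cell receptor genes Ncr1 (-0.04) and Klrb1c (-0.35) and the granzyme gene Gzma (0.16) did not pass. Outside the list, Tigit, an inhibitory receptor of T and NK cells, read 8.01, 10.27 and 9.83 at passage 4 and 5.999, 5.74 and 6.43 at passage 1 (3.31 ± 0.42, 9.94-fold, adjusted p = 2.01e-05). The signalling regulator Rgs16 rose by 2.28 ± 0.38 and read 6.95, 9.30 and 8.80 at passage 4, against 6.12, 6.05 and 6.05 at passage 1. In each of Gzmb, Prf1, Cd8a, Cd3e, Tigit and Rgs16 passage 4 replicate 1 was the lowest of its group and above all of passage 1.

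List levels were 6.47, 7.47 and 7.19 at passage 4, 6.18, 5.93 and 5.93 at passage 1 and 6.23 to 6.90 in the normal controls, and they lay between 5.68 and 6.51 at passages 2 and 3. Gzmb averaged 5.49, 6.43 and 8.47 at passages 2, 3 and 4, against 4.58 at passage 1. The replicate with the lowest T and NK level at passage 4 was also the one with the lowest level of interferon gamma induced GTPases, and the same held at passage 3. It did not hold at passage 2, where replicate 1 had the lowest T and NK level (5.71) and the highest GTPase level (6.27). At passage 1 replicates 2 and 3 were level in T and NK genes (5.93 each) and had the lowest and the highest GTPase level (5.60 and 5.90). The part of the donor lymphocytes in the sorted graft in the interferon gamma genes was not tested.

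**Figure D3:**
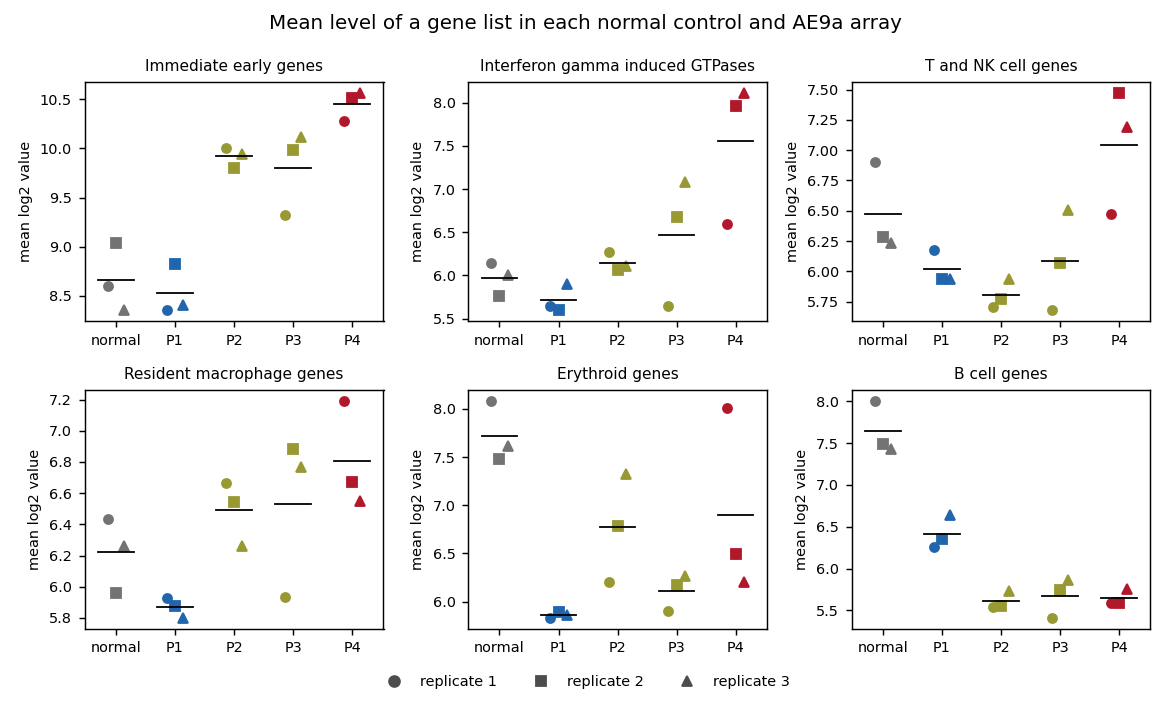
Mean log2 value over the measured members of 6 gene lists (y axis, one panel each) in every array of the normal controls and of AE9a passages 1 to 4 (x axis), with a marker for each replicate number and a line at the group mean. Immediate early genes are high in all arrays from passage 2 on, interferon gamma induced GTPases and T and NK cell genes are highest in replicates 2 and 3 of passage 4, and erythroid genes are high in replicate 1 of passage 4.

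Erythroid and mast cell lists had 3 rises each, a larger share than the 2.02% of all genes that rose. Another measure is the unadjusted p, under 0.05 for 10 of the 19 erythroid genes, all higher, and for 14.4% of all genes in either direction. Of 19 erythroid genes 3 rose and 0 fell (median 0.82), with list levels of 8.01, 6.49 and 6.21 at passage 4 and 5.83, 5.89 and 5.86 at passage 1. Car1, a carbonic anhydrase of early red cells, read 10.85, 8.16 and 6.39 at passage 4 and 4.96, 5.02 and 4.71 at passage 1 (3.57 ± 0.69, adjusted p = 0.00236). Rhag, a red cell membrane channel gene, read 9.67, 6.78 and 5.70 at passage 4 and 4.70, 4.56 and 4.57 at passage 1 (2.78 ± 0.71), and Fech, the last enzyme of haem synthesis, rose by 1.66 ± 0.38. Rhag passed in 2 and Fech in 4 of the 6 fits without 1 array. Without passage 4 replicate 1 the list had 1 rise and a median of 0.26, and without passage 1 replicate 1 it had 1 rise. The normal controls lay at 7.48 to 8.08, so passage 1 stood below normal marrow and replicate 1 of passage 4 within its range.

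Of 15 mast cell and basophil genes 3 rose and 1 fell (median 0.67). Cpa3, the carboxypeptidase of mast cells, read 11.48, 10.16 and 10.09 at passage 4 and 6.49, 8.54 and 7.87 at passage 1 (2.94 ± 0.74, adjusted p = 0.0227), Gata2 rose by 1.98 ± 0.52 and Il4 by 0.91 ± 0.21, and the eosinophil granule gene Prg2 fell (-1.32 ± 0.27). Cpa3, Gata2 and Il4 passed in 3, 2 and 4 of the 6 fits without 1 array. The IgE receptor chain gene Ms4a2 differed by 2.21 ± 0.65 and did not pass (adjusted p = 0.0588). Without passage 4 replicate 1 the list had 0 of its 3 rises left in limma, 1 fall and a median of 0.23, and it had 1 rise without each array of passage 1. Of 11 megakaryocyte and platelet genes Itga2b rose (1.05 ± 0.30, adjusted p = 0.0482, a call lost on leaving out any of the 6 arrays).

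The deepest fall was in Plet1, which encodes a GPI-anchored surface protein of epithelial progenitors. Plet1 read 6.64, 6.94 and 6.89 at passage 4 and 11.44, 11.91 and 11.41 at passage 1 (-4.76 ± 0.37, 27.1-fold lower, adjusted p = 2.09e-09). It averaged 9.94 ± 0.25 at passage 2 and 9.84 ± 0.27 at passage 3, between these levels, and 5.73 ± 0.20 in the normal controls (SD, n = 3 each). The arrays of the 4 passages did not overlap except for those of passages 2 and 3, so the steps to passage 2 and to passage 4 were larger than the spread within a passage.

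Mreg, which encodes melanoregulin, a protein of lysosome-related organelles, fell to 4.90, 5.02 and 4.41 at passage 4, against 8.91, 9.02 and 8.54 at passage 1 (-4.05 ± 0.49, 16.5-fold lower). Adgrl4, an adhesion receptor gene of endothelium, fell as well (-3.80 ± 0.52, 13.9-fold lower) and was already at 4.93 at passage 2. Lrrk2, a kinase gene known from Parkinson disease, read 7.53, 7.02 and 7.19 at passage 4 and 10.14, 10.04 and 10.26 at passage 1 (-2.90 ± 0.55). Fam167a fell too (-2.10 ± 0.21, adjusted p = 3.26e-07). The windows of Plet1 (chr9:50494275-50494574, plus strand) and Mreg (chr1:72212265-72212564, minus strand, the first of its 2 annotated starts), again RefSeq on GRCm38, are shown as counterparts of the 2 stefins, and neither holds TGTGGT or ACCACA.
Plet1: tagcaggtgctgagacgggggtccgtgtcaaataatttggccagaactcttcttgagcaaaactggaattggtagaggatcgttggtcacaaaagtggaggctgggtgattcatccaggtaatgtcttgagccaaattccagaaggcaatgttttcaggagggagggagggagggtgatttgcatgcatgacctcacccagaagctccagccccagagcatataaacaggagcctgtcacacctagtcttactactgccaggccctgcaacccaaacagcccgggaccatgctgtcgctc
Mreg: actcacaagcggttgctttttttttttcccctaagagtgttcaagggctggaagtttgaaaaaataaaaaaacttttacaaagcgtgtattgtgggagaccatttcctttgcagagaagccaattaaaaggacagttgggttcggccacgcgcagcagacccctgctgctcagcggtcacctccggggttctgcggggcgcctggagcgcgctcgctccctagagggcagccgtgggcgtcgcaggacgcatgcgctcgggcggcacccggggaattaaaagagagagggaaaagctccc

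Further genes among the 15 largest falls encode proteins of the cell surface, of lipid synthesis and of the matrix. Mmp13, a collagenase gene, fell to 4.70, 4.27 and 4.43 at passage 4, against 7.63, 7.02 and 7.19 at passage 1 (-2.82 ± 0.72, adjusted p = 0.0246, a call lost on leaving out any of the 6 arrays). The tight junction gene Cldn1 (-2.85 ± 0.68), the semaphorin receptor gene Nrp2 (-2.40 ± 0.57) and the proton pump subunit gene Atp6v0d2 (-2.70 ± 0.66) fell. Of the enzymes, Gpat3 (-2.26 ± 0.30, with a second probe set at -0.45) and Mboat1 (-2.37 ± 0.44) act on glycerolipids and Xylt1 (-2.38 ± 0.41) starts glycosaminoglycan chains. Amer2 (-2.69 ± 0.42), Ifi202b (-2.28 ± 0.41) and Myo1d (-2.31 ± 0.60) complete the set, and Myo1d read 8.08, 5.74 and 5.54 at passage 4 against 8.96, 8.67 and 8.67 at passage 1. Cldn1, Nrp2, Atp6v0d2 and Myo1d passed in 2, 3, 2 and 1 of the 6 fits without 1 array.

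Of the B lineage genes named, Jchain fell furthest. Jchain, which joins IgM and IgA polymers in plasma cells, read 4.999, 4.95 and 4.61 at passage 4 and 7.62, 8.45 and 8.92 at passage 1, against 10.12 ± 0.60 in the normal controls (-3.48 ± 0.48 between passages, 11.1-fold lower, adjusted p = 5.86e-05). Of 16 B cell genes 0 rose and 2 fell, the factor gene Ebf1 (-1.60 ± 0.43, adjusted p = 0.0326) and the adaptor gene Blnk (-1.47 ± 0.41, adjusted p = 0.0421), with a median of -0.56 and differences below 0 in all 16, and 9 were lower at an unadjusted p under 0.05. The shares over all genes were 0.915% for falls and 14.4% for an unadjusted p under 0.05 in either direction. List levels were 5.59, 5.59 and 5.76 at passage 4 and 6.26, 6.36 and 6.64 at passage 1, and 7.43 to 8.01 in the normal controls. In the fits that left out 1 array 0 or 1 of the 2 passed, and in the fit on the 6 compared arrays alone 6 passed.

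Metabolic and signalling lists had few calls in number. The rises or falls given here still made a larger share of their list than among all genes (2.02% higher, 0.915% lower). Of 20 genes of glycolysis and hypoxia Tpi1 (1.68 ± 0.29), Pdk1 (1.21 ± 0.22, with a second probe set at 0.03) and Bnip3 (0.83 ± 0.21) rose and 0 fell, with a median of 0.44, and Bnip3 passed in 2 of the 6 fits without 1 array. Of 13 genes of cholesterol synthesis Msmo1 (-1.04 ± 0.25) and the master factor gene Srebf2 (-1.12 ± 0.30) fell and 0 rose, with 0 falls without passage 1 replicate 3 or passage 4 replicates 2 or 3. Of 22 genes of MYC targets and ribosome biogenesis Myc itself rose and 0 fell, and with a median of 0.70 another 11 were higher at an unadjusted p under 0.05. That cut was met by 14.4% of all genes in either direction, and 21 of the 22 differences of the list were above 0. Mean levels of that list were 8.42, 7.69 and 7.60 at passage 4 and 7.01, 7.33 and 7.36 at passage 1. Among 18 adhesion and homing receptors the integrin genes Itga4 (1.57 ± 0.37) and Itgb7 (1.41 ± 0.40) rose, and Jak2 fell (-0.88 ± 0.22) among 17 genes of RAS and kinase signalling. Itga4 passed in 3 of the 6 fits without 1 array, and Itgb7 and Jak2 in 0 of 6 and under 2 of 3 other scalings. Ecm1 rose (2.00 ± 0.40) among 18 matrix genes, and H2-DMa (1.58 ± 0.37), which loads peptides on MHC class II, among 14 genes of dendritic cells, the second in 4 of the 6 fits without 1 array.

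Several lists had 0 calls in limma. Of 29 cell cycle and replication genes 0 passed, and 0 reached an unadjusted p under 0.05, with a median of 0.25 and levels of 8.89, 8.07 and 8.26 at passage 4 and 7.58, 8.07 and 8.79 at passage 1 that overlapped. Of 18 respiratory chain genes 0 passed with 1 at an unadjusted p under 0.05, of 10 heat shock genes 0 with 4, of 20 DNA and histone modifiers 0 with 3, of 15 apoptosis regulators 0 with 1, of 11 cohesin and splicing genes 0 with 1, of 14 antioxidant genes 0 with 6, of 16 stroma and endothelium genes 0 with 0, of 6 sort and graft markers 0 with 0, of 4 sex-linked genes 0 with 1 and of 9 housekeeping genes 0 with 0. An unadjusted p under 0.05 was seen for 14.4% of all genes in either direction. The heat shock and antioxidant lists each held a larger share. All 4 heat shock genes at that cut were higher, and 9 of the 10 differences of their list were above 0. Among the antioxidant genes at that cut 2 were higher and 4 lower. Of 21 genes of the amino acid and unfolded protein response Atf3 rose and 0 fell.

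Genes of the fusion and of miR-126 biology were named whatever their values. Runx1 read 9.91, 9.78 and 9.82 at passage 4 and 9.71, 9.87 and 9.89 at passage 1 (0.01 ± 0.25, adjusted p = 0.988). Runx1t1, the mouse counterpart of ETO, read 5.76, 6.14 and 6.23 at passage 4 and 6.17, 6.34 and 6.43 at passage 1 (-0.27 ± 0.20, adjusted p = 0.583), and the labels leave unsaid whether these probes read the introduced fusion. Of 6 runt and ETO family genes 0 passed in limma and 2 were higher at an unadjusted p under 0.05. For this and the next 2 lists, the shares over all genes were 2.02% higher, 0.915% lower and 14.4% at an unadjusted p under 0.05. Of 13 reported t(8;21) marker genes Ubash3b rose (0.94 ± 0.26, adjusted p = 0.0433) and Cav1 fell (-1.22 ± 0.31, adjusted p = 0.0246), with 1 and 0 of the 6 fits without 1 array keeping the call. Of 21 reported miR-126 targets Mertk, Vcam1, Fzd7 (1.00 ± 0.24) and Plk2 rose and 0 fell (Fzd7 in 3 of 6 fits without 1 array), with a median of 0.05 and 1 rise without passage 1 replicate 1, 2 without passage 4 replicate 2 and 2 without passage 4 replicate 3. Errfi1 (0.05 ± 0.52, adjusted p = 0.981), Spred1 (0.06 ± 0.37, adjusted p = 0.964) and Egfl7 (0.10 ± 0.21, adjusted p = 0.878) did not pass.

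The change between passages was then set against the same change in the other leukaemia arms, which share no array with it. Against miR-126KO+AE9a 95 genes differed in their change (0.428%), 84 with a higher change in AE9a (0.379%) and 11 with a lower one (0.0496%). The number ranged from 42, without passage 1 replicate 2 of the knockout arm, to 147, without passage 4 replicate 1 of AE9a, when 1 of the 12 arrays was left out. Of 19 genes of T and NK cells 7 differed, all higher in AE9a, as did 8 of 25 type I interferon genes, 6 of 16 interferon gamma induced GTPases and 2 of 20 immediate early genes. Gzmb changed by 3.89 in AE9a and by 0.03 in the knockout arm (difference 3.86 ± 0.69, adjusted p = 0.00417). Prf1 differed by 2.56 ± 0.45 and Cd8a by 2.58 ± 0.54. Igtp changed by 2.68 in AE9a and by -1.64 in the knockout arm (difference 4.32 ± 0.74, adjusted p = 0.00321), and Csta2 by 5.80 and -0.51 (difference 6.31 ± 0.99, adjusted p = 0.00174). Among falls, Lrrk2 changed by -2.90 in AE9a and by 0.60 in the knockout arm (difference -3.50 ± 0.77, adjusted p = 0.0272), and Mreg and Adgrl4 differed in the same direction. Of the 12 fits that left out 1 array, the difference passed in all 12 for Csta2, Igtp, Gzmb and Prf1, in 5 for Cd8a, in 3 each for Lrrk2 and Mreg and in 1 for Adgrl4, and Mreg passed under 2 of 3 other scalings.

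Plet1 changed by -4.76 in AE9a, -5.18 in AE9a+miR-126 and -4.01 in miR-126KO+AE9a, and its change in AE9a differed from the others by 0.42 ± 0.53 (adjusted p = 0.58) and -0.75 ± 0.53 (adjusted p = 0.825). Against AE9a+miR-126 2336 genes differed in their change (10.5%), 1318 with a higher change in AE9a (5.94%) and 1018 with a lower one (4.59%). The number moved from 751 with array spread as a covariate to 13981 with array weights, and to 8452 without passage 4 replicate 3 of AE9a+miR-126 and 818 without passage 1 replicate 1 of AE9a, and replicates 1 and 2 of passage 4 of AE9a+miR-126 had a narrower spread of values (SD 1.66 and 1.63, against 2.01 in replicate 3 and 1.86 to 2.06 in AE9a). The part of this spread in the difference was not tested beyond these fits. Gzmb (3.90 ± 0.69), Prf1 (2.46 ± 0.45) and Csta2 (5.93 ± 0.99) were among those with a higher change in AE9a, and passed under each of 3 scalings and without any 1 of the 12 arrays.

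**Figure D4:**
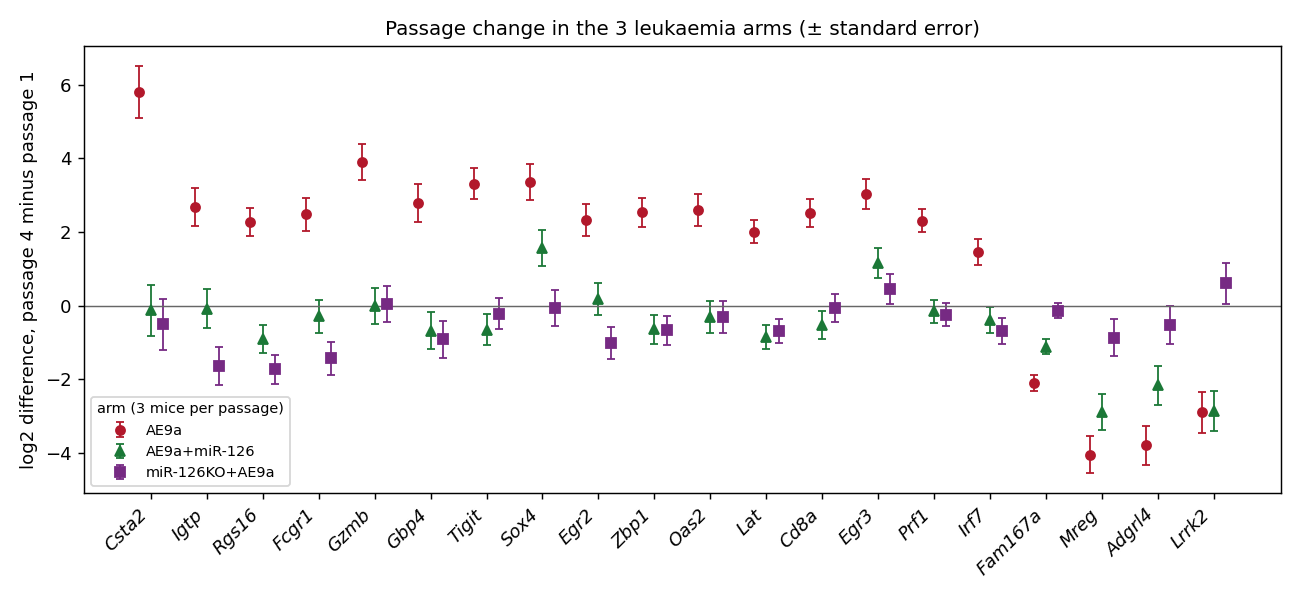
Log2 difference of passage 4 minus passage 1 (y axis, ± standard error from limma) in AE9a (circles), AE9a+miR-126 (triangles) and miR-126KO+AE9a (squares), each from 3 mice per passage, for the named genes that passed both between the AE9a passages and in the difference from the knockout arm. From Csta2 to Irf7 the AE9a change is above 0 and the knockout change at most 0.45, and Lrrk2 is the 1 gene that fell in AE9a with a knockout change above 0.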

How the data were processed

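The authors hybridized RNA of sorted donor cells to Mouse Gene 2.0 ST arrays and deposited log2 values made by RMA and Partek 6.0, per the submitters' processing notes, as 1 table of 27037 probe sets in 39 arrays. Of these probe sets 23521 had 1 gene symbol, 1814 several and 1702 none, and the brightest probe set stood for each of 1082 genes with several, which left 22180 genes.

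From these values limma 3.58.1 in R 4.3.3 fitted 13 group means over all 39 arrays (26 residual degrees of freedom), with empirical Bayes moderation and Benjamini-Hochberg adjustment over 22180 genes at 0.05, two-sided. The groups are labelled as separate mice, and p-values measure the spread between mice within a group, pooled over all 13 groups. Whether the mice of a group carried separately started leukaemias was not given. Scan dates were not used here, and 0 array pairs were identical. The code was tested on simulated data.

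Named genes were the 15 largest rises and falls that passed without overlap of the groups, up to 4 per gene list by smallest p, 5 per direction of each interaction, and 6 named whatever their values. Predicted genes, small RNAs, olfactory and vomeronasal receptors, antigen receptor segments and ribosomal pseudogenes were passed over among rises, falls and interactions. Genes given only as further list members, and those stated to be so, were chosen after their values were seen. The comparison, the 42 lists (630 of 695 genes measured) and their members were chosen with earlier results of these data known. Promoter windows are from RefSeq (GRCm38) and were found for 171 of 218 named genes. Alternatives were other sets of arrays, array weights, scaling, filters, a replicate block and leaving out each array.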

Additional observations from a re-analysis of the deposited data

Results flagged for a closer look

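Genes named in the text are listed here where the change from passage 1 to passage 4 in AE9a differed from the change in another arm by limma's test of the difference itself, given as log2 change in AE9a minus log2 change in the other arm ± standard error, with 3 mice per group.

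Against miR-126KO+AE9a the change in AE9a was higher for Csta2 (6.31 ± 0.99, adjusted p = 0.00174), Tph1 (5.73 ± 0.94, adjusted p = 0.00238), Anpep (4.38 ± 0.88, adjusted p = 0.0136), Igtp (4.32 ± 0.74, adjusted p = 0.00321) and Rgs16 (4.01 ± 0.54, adjusted p = 0.000423). Higher differences from the knockout arm were also measured for Gzmb (3.86 ± 0.69, adjusted p = 0.00417), Tigit (3.53 ± 0.60, adjusted p = 0.00286), Gbp4 (3.70 ± 0.71, adjusted p = 0.00971), Egr2 (3.35 ± 0.62, adjusted p = 0.00522) and Fcgr1 (3.92 ± 0.64, adjusted p = 0.00231). Smaller ones of that direction were Prf1 (2.56 ± 0.45, adjusted p = 0.00326), Cd8a (2.58 ± 0.54, adjusted p = 0.0194), Lat (2.70 ± 0.46, adjusted p = 0.00286), Zbp1 (3.20 ± 0.55, adjusted p = 0.00321) and Oas2 (2.90 ± 0.62, adjusted p = 0.0203). They also included Irf7 (2.15 ± 0.50, adjusted p = 0.0421), Egr3 (2.58 ± 0.57, adjusted p = 0.0266) and Sox4 (3.42 ± 0.69, adjusted p = 0.0136). The change in AE9a was lower than in the knockout arm for Fam167a (-1.97 ± 0.29, adjusted p = 0.00143), Ldlrad3 (-1.91 ± 0.44, adjusted p = 0.0383), Mreg (-3.18 ± 0.70, adjusted p = 0.026), Adgrl4 (-3.28 ± 0.74, adjusted p = 0.0302) and Lrrk2 (-3.50 ± 0.77, adjusted p = 0.0272). When each of the 12 arrays was left out in turn, the difference from the knockout arm passed in 9 fits for Gbp4 and Sox4, 6 for Oas2, 5 for Cd8a, 3 for Egr3, Mreg and Lrrk2, 2 for Irf7 and 1 for Ldlrad3 and Adgrl4, and in all 12 for the others listed. Under 3 other scalings Irf7 passed in 1, and Oas2, Egr3 and Mreg in 2. In AE9a itself the change passed in 1 of the 6 fits without 1 array for Tph1 (1.00 to 3.01). It passed in 0 of 6 for Anpep (0.64 to 0.83) and Ldlrad3 (0.51 to 1.04).

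Against AE9a+miR-126 the change in AE9a was higher for Retnlg (6.48 ± 0.88, adjusted p = 1.96e-05), Ifi204 (6.46 ± 0.78, adjusted p = 7.39e-06), Stfa2l1 (6.42 ± 1.35, adjusted p = 0.00348), Fn1 (6.36 ± 0.83, adjusted p = 1.35e-05) and Stfa3 (6.56 ± 1.33, adjusted p = 0.00254). Genes named for the other comparison also had a higher change in AE9a, with Gzmb (3.90 ± 0.69, adjusted p = 0.000617), Prf1 (2.46 ± 0.45, adjusted p = 0.000766), Cd8a (3.05 ± 0.54, adjusted p = 0.000632), Lat (2.86 ± 0.46, adjusted p = 0.000206) and Igtp (2.76 ± 0.74, adjusted p = 0.0196). To these belong Gbp4 (3.46 ± 0.71, adjusted p = 0.00294), Zbp1 (3.17 ± 0.55, adjusted p = 0.000528) and Csta2 (5.93 ± 0.99, adjusted p = 0.000332). It was lower for Tmem178 (-5.70 ± 0.74, adjusted p = 1.35e-05), Clec2m (-4.21 ± 0.54, adjusted p = 1.17e-05), Mid1 (-3.55 ± 0.58, adjusted p = 0.000271), Btbd35f1 (-3.38 ± 0.90, adjusted p = 0.0178) and Myo18b (-3.25 ± 0.41, adjusted p = 1.09e-05). Without 1 of the 12 arrays the difference passed in 9 fits for Btbd35f1 and Igtp and in all 12 for the others listed, and under 3 other scalings in 2 for Btbd35f1 and 1 for Igtp. Stefin genes are near-identical copies, so their values may share signal. In AE9a itself the change passed in 0 of the 6 fits without 1 array for Retnlg, Ifi204, Stfa2l1, Fn1, Tmem178, Clec2m, Mid1, Btbd35f1 and Myo18b. It lay at -0.22 to 0.02 for Retnlg, 0.28 to 0.65 for Stfa2l1 and -0.32 to -0.12 for Tmem178. The differences of these genes therefore lay mostly in the change of the AE9a+miR-126 arm.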

How the results depend on the processing

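With 3 mice per group, the number of genes that passed depended on the fit, and array brightness limits dim genes. Against 652 genes (449 higher, 203 lower), the 6 compared arrays alone gave 1485 (919 and 566), the 12 AE9a arrays 1858 (1093 and 765), the arrays other than the 12 with added miR-126 1453 (959 and 494), array weights 3691 (2049 and 1642), cyclic loess 1303 (741 and 562), quantile normalization 753 (410 and 343) and the spread covariate 1492 (693 and 799). Leaving out 1 of the 6 arrays gave 297 to 436 genes, 189 to 318 higher and 89 to 121 lower. Against 2336 genes whose change differed from AE9a+miR-126, array weights gave 13981, cyclic loess 1154, quantile normalization 1180, the spread covariate 751 and the brighter genes 1556, and leaving out 1 array 818 to 8452. Against 95 genes that differed from the knockout arm, array weights gave 1731 and the spread covariate 171, and leaving out 1 array 42 to 147. The cause of these shifts was not tested. Replicate numbers did not pair the arrays (correlations of same-numbered deviations -0.25, -0.14 and -0.18), and with a replicate block 610, 2051 and 91 genes passed in the 3 comparisons.

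Some genes with differences near 0 changed sign. With array weights Runx1 was at -0.041, Egfl7 at -0.105, Errfi1 at -0.045 and Spred1 at -0.255. After cyclic loess Runx1 was at -0.032, Errfi1 at -0.027, Spred1 at -0.060 and the difference of the Plet1 change from AE9a+miR-126 at -0.19. After quantile normalization Runx1 was at -0.00022 and Spred1 at -0.042, and with the spread covariate Retnlg was at 0.015, Runx1 at -0.161 and Spred1 at -0.025. Leaving out 1 array gave ranges of -0.047 to 0.047 for Runx1, -0.154 to 0.308 for Egfl7, -0.189 to 0.179 for Errfi1, -0.265 to 0.261 for Spred1 and -0.222 to 0.023 for Retnlg.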

Other observations

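Antigen receptor segments and further lymphocyte genes, all chosen after their values were seen, are given as values. Of 14 immunoglobulin kappa segments 8 fell and 0 rose at passage 4 (median -1.96), with falls of -3.88 to -1.78, and of 4 heavy chain segments 3 fell (median -1.65), against 0.915% of all genes lower and 2.02% higher. Of 5 T cell receptor alpha segments 1 rose and 0 fell (median -0.02, from -0.42 to 2.22), the 1 beta segment measured rose, and of 2 gamma and delta segments 0 passed in limma, and 0 at an unadjusted p under 0.05 (median -0.06). Segments of one locus are near-identical copies, so their values may share signal. The T cell receptor segment Trbv13-2 read 7.63, 6.11 and 6.17 at passage 4 and 4.17, 3.55 and 3.70 at passage 1 (2.83 ± 0.58, limma adjusted p = 0.00403), and here replicate 1 was the highest of passage 4. Trav9d-3 rose by 2.22 ± 0.59 (adjusted p = 0.0341, passing in 1 of 6 fits without 1 array), while its 4 other probe sets differed by 0.01 to 1.06.

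Single genes that T cells carry moved in both directions. Ifng, which encodes interferon gamma, read 5.37, 6.53 and 6.47 at passage 4 and 4.96, 5.07 and 4.96 at passage 1 (1.12 ± 0.21, adjusted p = 0.00205). The inhibitory receptor genes Lag3 (2.36 ± 0.37) and Pdcd1 (1.72 ± 0.39), the chemokine receptor gene Cxcr6 (1.80 ± 0.30), the granzyme gene Gzmk (1.54 ± 0.31) and the factor gene Eomes (1.16 ± 0.28) rose, of which Pdcd1, Gzmk and Eomes passed in 4, 5 and 1 of the 6 fits without 1 array. Il2ra, the high-affinity chain of the interleukin 2 receptor, fell to 5.54, 5.57 and 5.97 at passage 4, against 7.76, 7.79 and 7.82 at passage 1 (-2.10 ± 0.34, adjusted p = 0.00034).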
